A study of Homo sapiens with 8 samples.

Results

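The genes described here are 44 interferon-stimulated effector genes, chosen by symbol as products known to be induced by interferon, together with STAT2 and IRF9 of the interferon-activated transcription factor. The OAS family and the nucleic acid sensors were kept out of the list by the same rule. All 44 symbols were found among the 25369 genes counted, and 41 were among the 14016 genes that passed a filter on low counts and were tested. The study sequenced RNA from MDA-MB-231 cells, an established human triple-negative breast cancer line. SUN2 spans the inner nuclear membrane and belongs to the complex that ties the nuclear lamina to the cytoskeleton. There were 2 libraries in each of 4 groups: unmodified cells (WT), a SUN2 knockout (SUN2KO), cells whose SUN2 lacks residues 569 to 585 (Kashlid), and cells whose SUN2 lacks residues 1 to 139 (LBD). The Kashlid deletion was meant to cut the link to Nesprin-2G, and the LBD deletion the link to the lamins. No added interferon or other agent is given for any group. The labels do not say in which cells the truncations were placed, how they were introduced, or whether a line is 1 clone, so a group may differ from another by more than SUN2.

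Type I and type III interferons bind receptors at the cell surface that carry the JAK1 and TYK2 kinases. The kinases activate STAT2, which works with IRF9 in the complex ISGF3, and ISGF3 binds the interferon-stimulated response element in promoters. The genes it switches on encode proteins that bind viral RNA, modify other proteins with ISG15, block viral entry or release, or control cell growth. In many tumour lines some of these genes are transcribed without added interferon.

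Depth was 16570099 to 18814795 counts per library. SUN2 itself had 83.7 and 81.9 CPM (counts scaled to a common library size) in WT but 25.6 and 30.3 in SUN2KO, while Kashlid had 37.2 and 35.4 and LBD had 32.5 and 34.6. SUN2 transcript was thus lower than WT in all 3 lines (log2 fold changes of -1.56, -1.19 and -1.30; adjusted p = 1.01e-11, 2.28e-10 and 9.22e-11). Counts per gene do not show whether the deleted part is present. The summed level of 9 markers of the line (breast epithelial and mesenchymal genes) was 2266 to 2297 CPM in WT and 2267 to 2753 in the truncation lines, with 3034 to 3036 in SUN2KO. Of 8 tested markers, 4, 3 and 4 were higher than WT in SUN2KO, Kashlid and LBD (50%, 37.5% and 50%), and 1 was lower in each (12.5%). Over all tested genes 17.5%, 21.7% and 19.05% were higher and 19.1%, 22.7% and 20.98% lower. The markers' log2 fold changes ran from -0.43 to 1.34, -0.93 to 1.31 and -0.26 to 0.86. As examples, VIM, of mesenchymal cells, was lower in the same order (-0.43, -0.43 and -0.26). The epithelial genes KRT18 (0.65, 0.33 and 0.44) and EPCAM (1.34, 0.60 and 0.68) were higher. In Kashlid the lowest and highest values belonged to other markers. Of 7 markers of HEK293-type cells, SOX2 and CRABP1 had no count in any library, LIN28B had 0 counts in both WT libraries and 6 to 17 in each of the others, and the summed level was 4.80 to 9.33 CPM. The part of these differences in the results was not tested. Of 6 leukocyte markers, CD3E and CLEC4C had no count in any library, and the summed level was 2.14 to 5.17 CPM over all libraries. Nothing in the labels marks the replicates as separate cultures, and the p-values therefore measure a spread between libraries that may be technical only. In bulk RNA, more RNA per cell and more expressing cells cannot be told apart.

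Most of the promoters searched hold the core of the response element, and 8 of them are shown as examples with a match before the start. RefSeq promoter windows on GRCh38.p14, reaching 250 bases before to 50 bases after an annotated start, were found for 38 members. IFIT2, MX2, USP18, IFITM2, PARP10 and TRIM22 were not in that table. Each window was searched on both strands for the core of the element, GAAA followed by any 2 bases and GAAA again, and overlapping matches were counted. The core was present in 27 of the 38 members (71.1%), against 4.38% of the 27305 genes with a window. A match describes the letters in the window and not a bound site. The 175 bases before the start are printed 5′ to 3′ on the strand of the gene, with matches to the core or its reverse complement in capitals. They come from members that differ in how they behaved across the lines.
IFIT1 promoter, chr10:89392448-89392622, plus strand: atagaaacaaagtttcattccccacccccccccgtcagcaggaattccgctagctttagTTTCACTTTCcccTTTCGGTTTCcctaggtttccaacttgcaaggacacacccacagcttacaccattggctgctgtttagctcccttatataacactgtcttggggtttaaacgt
IFIT3 promoter, chr10:89327822-89327996, plus strand: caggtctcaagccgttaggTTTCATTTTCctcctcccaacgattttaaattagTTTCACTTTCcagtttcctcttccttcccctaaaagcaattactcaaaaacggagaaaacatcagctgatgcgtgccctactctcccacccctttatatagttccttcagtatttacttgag
ISG15 promoter, chr1:1013322-1013496, plus strand: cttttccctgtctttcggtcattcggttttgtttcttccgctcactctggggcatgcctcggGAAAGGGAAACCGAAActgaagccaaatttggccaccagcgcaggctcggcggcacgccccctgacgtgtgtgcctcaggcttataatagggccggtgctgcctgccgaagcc
RSAD2 promoter, chr2:6877602-6877776, plus strand: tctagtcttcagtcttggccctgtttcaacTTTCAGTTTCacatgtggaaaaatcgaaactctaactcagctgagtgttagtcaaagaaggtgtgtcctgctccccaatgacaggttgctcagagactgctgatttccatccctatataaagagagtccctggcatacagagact
IFI44L promoter, chr1:78620273-78620447, plus strand: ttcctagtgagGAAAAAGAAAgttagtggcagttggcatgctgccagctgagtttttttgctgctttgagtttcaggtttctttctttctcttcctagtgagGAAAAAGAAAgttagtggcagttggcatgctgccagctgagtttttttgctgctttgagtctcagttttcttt
HERC5 promoter, chr4:88456944-88457118, plus strand: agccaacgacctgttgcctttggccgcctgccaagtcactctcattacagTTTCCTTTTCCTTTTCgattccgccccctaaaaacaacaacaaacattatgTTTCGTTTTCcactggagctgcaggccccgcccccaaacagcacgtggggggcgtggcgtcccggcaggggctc
DDX60 promoter, chr4:168318753-168318927, minus strand: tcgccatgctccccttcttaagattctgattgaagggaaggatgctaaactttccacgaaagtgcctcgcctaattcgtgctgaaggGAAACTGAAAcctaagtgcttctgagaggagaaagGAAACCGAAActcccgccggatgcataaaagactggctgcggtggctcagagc
BST2 promoter, chr19:17405631-17405805, minus strand: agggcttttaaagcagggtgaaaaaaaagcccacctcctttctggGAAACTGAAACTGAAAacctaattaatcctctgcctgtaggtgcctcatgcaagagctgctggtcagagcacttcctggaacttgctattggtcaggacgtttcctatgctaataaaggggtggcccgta
The IFIT1, IFIT3, RSAD2 and HERC5 promoters hold the core on the strand opposite to the gene, and the ISG15, IFI44L, DDX60 and BST2 promoters hold it on the same strand. Overlapping matches run together into 1 stretch of capitals in ISG15, HERC5 and BST2. In IFI44L the core stands in a stretch that is repeated within the printed window. Across the 27 members a gene had 1 to 4 matches over all its windows, and 45 of the 51 matches lay before the start. Matches were counted from each annotated start. A site in overlapping windows was therefore counted more than once, in IFI27, IFI44 and PLSCR1 and between PARP9 and DTX3L. The number of separate sites is thus below 51.

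**Figure D1:**
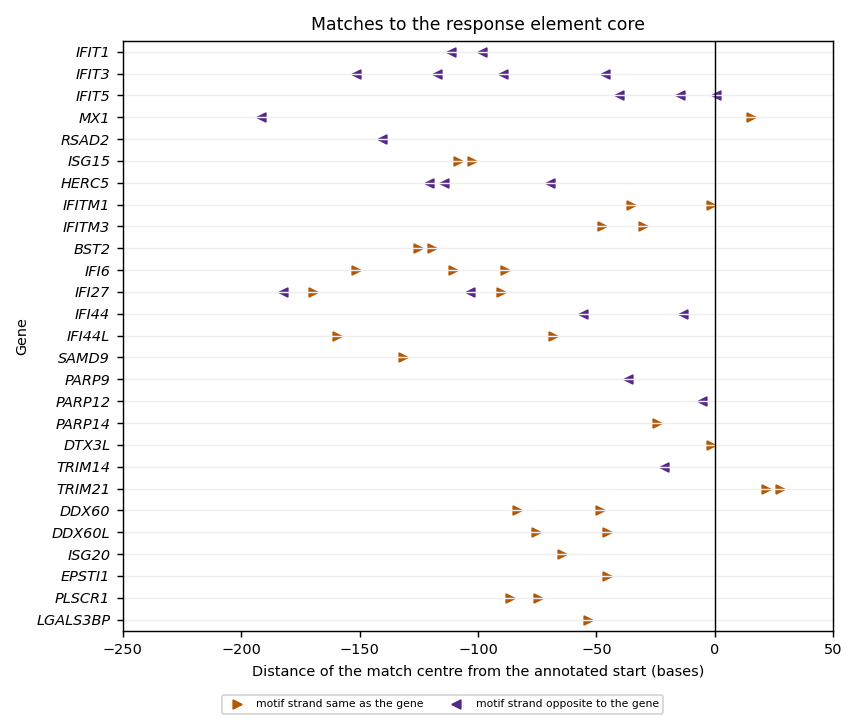
Position of each match to the response element core in the promoter windows of the 27 members that have one. The x axis is the distance of the match centre from the annotated start in bases, and the y axis lists the genes. The direction and colour of a triangle give the strand. Matches are counted from each start, so a site in overlapping windows appears more than once, and 45 of 51 lie before the start.

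Comparing each line with WT asks how the loss of SUN2 or of one of its contacts goes with the effector genes. In both truncation lines most of the tested members were higher than in WT, and in SUN2KO they were split between both directions. The 3 comparisons share the WT libraries, so they are not independent of each other. In Kashlid against WT, 27 of 41 members were higher (65.9%) and 5 were lower (12.2%), while 21.7% and 22.7% of all tested genes were called higher and lower. In LBD against WT, 27 members were higher (65.9%) and 3 were lower (7.32%), against 19.05% and 20.98% of all genes. In SUN2KO against WT, 9 members were higher (21.95%) and 8 were lower (19.5%), shares near the 17.5% and 19.1% of all genes.

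Of the higher members, 18 in Kashlid and 16 in LBD were higher by 2-fold or more, a size that 3.66% and 3.36% of all tested genes reached. The median log2 fold change over the tested members was 0.66 in Kashlid, 0.65 in LBD and 0.06 in SUN2KO. Over all tested genes it was 0.0054, 0.0031 and 0.0026. The members that passed the filter include MX2, SAMD9L and IFI27, which reached its minimum only with the libraries of the truncation lines, so these counts describe the list and do not test it. The SUN2KO count is the least firm, since without SUN2KO replicate 2 only 4 members were higher.

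**Figure D2:**
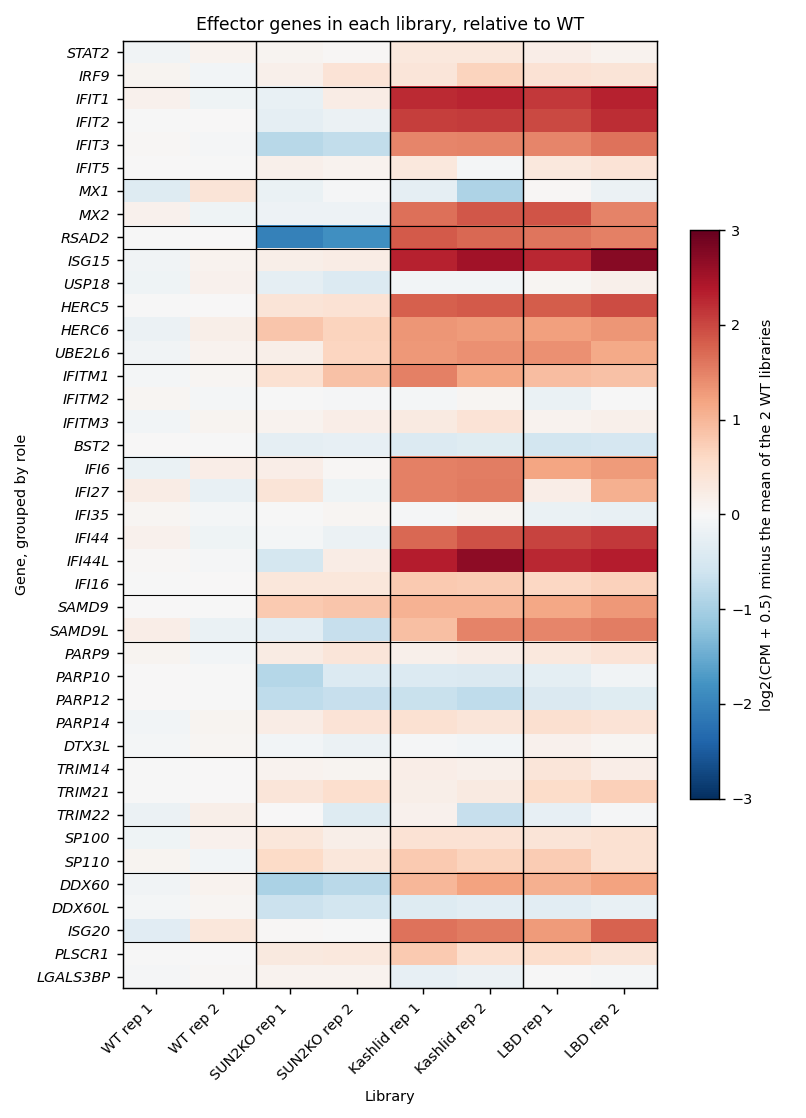
Level of each tested member in each of the 8 libraries, as the log2 difference from the mean of the 2 WT libraries; genes are rows in role order and libraries are columns. The Kashlid and LBD columns stand above WT for 27 members each, and the SUN2KO columns are above for 9 and below for 8 by the test.

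The 2 subunits of ISGF3 in the list differed from WT by less than 2-fold. IRF9, the DNA-binding subunit of ISGF3 (chromosome 14, 24630422 to 24635774 on hg19), had 10.8 and 9.60 CPM in WT against 11.4 and 13.8 in SUN2KO, while Kashlid had 13.3 and 16.5 and LBD had 14.0 and 13.5. All 6 libraries of the 3 lines lay above both WT libraries. The log2 fold changes were 0.54 ± 0.14 (SE, adjusted p = 0.00346) in Kashlid, 0.43 ± 0.14 (0.0209) in LBD and 0.30 ± 0.14 (0.103) in SUN2KO. STAT2, the subunit that activates transcription, had 54.8 and 64.0 CPM in WT and 62.6 and 61.0 in SUN2KO, compared with 74.2 and 74.0 in Kashlid and 67.6 and 63.6 in LBD. It was higher in Kashlid only at 0.32 ± 0.07 (adjusted p = 0.00127), with 0.14 ± 0.07 in LBD (0.134) and 0.06 ± 0.07 in SUN2KO (0.594). These calls were lost without 1 of the WT libraries: without WT replicate 1 STAT2 in Kashlid gave 0.21 (0.0576), and without WT replicate 2 IRF9 gave adjusted p = 0.0539 in Kashlid and 0.165 in LBD. IRF9 also missed the threshold in LBD with DESeq2 (0.0753), with the window median subtracted (0.0734) or without LBD replicate 1 (0.0975) or 2 (0.0563), and in Kashlid without Kashlid replicate 2 (0.0612).

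The IFIT proteins bind viral RNA and block its translation, and their 4 genes lie side by side on chromosome 10 (91061706 to 91180759 on hg19). IFIT1, IFIT2 and IFIT3 rose several-fold in both truncation lines. IFIT1 (91152303 to 91166244) had 17.8 and 15.1 CPM in WT against 13.9 and 19.1 in SUN2KO, while Kashlid had 78.8 and 81.7 and LBD had 73.4 and 83.2. Its SUN2KO libraries straddled the WT libraries, and the truncation lines lay far above both. Its log2 fold changes were 2.29 ± 0.11 in Kashlid (adjusted p = 1.27e-12), 2.25 ± 0.11 in LBD (2.45e-12) and 0.0086 ± 0.13 in SUN2KO (0.967). IFIT3 had 18.4 and 17.3 CPM in WT and 9.79 and 10.5 in SUN2KO, compared with 50.4 and 51.1 in Kashlid and 50.1 and 56.2 in LBD. It was lower than WT in SUN2KO (-0.81 ± 0.11, 5.39e-06) and higher in Kashlid (1.51 ± 0.09, 4.71e-11) and LBD (1.57 ± 0.09, 2.96e-11). No 2 of these groups overlapped except the truncation lines with each other.

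IFIT2 had 27.9 and 28.1 CPM in WT against 23.3 and 24.6 in SUN2KO, while Kashlid had 120.5 and 121 and LBD had 113 and 131. The rise was 2.11 ± 0.08 in Kashlid (adjusted p = 2.89e-14) and 2.12 ± 0.08 in LBD (3.21e-14). Its lower level in SUN2KO was small (-0.23 ± 0.09, adjusted p = 0.0463) and did not pass in DESeq2 (0.0925), with library size only (0.0538) or without any 1 of the 4 libraries compared (0.089 to 0.243). IFIT5, the outermost of the neighbours, had mean levels of 16.4, 18.0, 18.2 and 21.5 CPM in WT, SUN2KO, Kashlid and LBD. Its rise in LBD was 0.38 ± 0.12 (adjusted p = 0.015; 0.0512 in DESeq2, and 0.0603 to 0.0984 without WT replicate 1, WT replicate 2 or LBD replicate 2). The IFIT genes are close in sequence, so reads may be shared between them.

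MX1 and MX2, dynamin-like GTPases that trap viral capsids, lie 23.1 kb apart on chromosome 21 (MX2 at 42733950 to 42780869) and gave different results. MX2 had 0.297 and 0.170 CPM in WT and 0.162 and 0.161 in SUN2KO, compared with 1.79 and 2.17 in Kashlid and 2.20 and 1.55 in LBD. Those levels rest on 5 and 3 counts in WT against 3 and 3 in SUN2KO, while Kashlid had 31 and 37 and LBD had 38 and 26. MX2 was low in all 8 libraries and higher in both truncation lines, at 3.05 ± 0.51 in Kashlid (adjusted p = 5.04e-05) and 2.98 ± 0.52 in LBD (8.65e-05). MX1 stayed between 0.293 and 1.48 CPM over the 8 libraries and did not pass in any comparison with WT. Its log2 fold changes were -1.02 ± 0.54 in Kashlid (0.131), -0.19 ± 0.49 in LBD (0.796) and -0.27 ± 0.49 in SUN2KO (0.709). The MX1 window holds a match to the core and MX2 had no window.

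RSAD2 (viperin, chromosome 2, 7017796 to 7038363), which makes a chain-terminating nucleotide analogue, had the largest difference between 2 groups of any tested member. It had 2.44 CPM in both WT libraries but 0.216 and 0.322 in SUN2KO, while Kashlid had 10.1 and 9.15 and LBD had 8.44 and 7.89. The counts were 41 and 43 in WT and 4 and 6 in SUN2KO, while Kashlid had 174 and 156 and LBD had 146 and 132. The groups were ordered with no overlap between SUN2KO, WT and the truncation lines. RSAD2 was lower than WT in SUN2KO (-3.14 ± 0.37, adjusted p = 1.06e-06) and higher in Kashlid (1.97 ± 0.20, 1.06e-07) and LBD (1.74 ± 0.20, 9.4e-07). CMPK2, its neighbour at 11.8 kb and a mitochondrial nucleotide kinase, had no count in any library, where 3 counts would be 0.159 to 0.181 CPM.

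ISG15 is a ubiquitin-like protein that is attached to other proteins by UBE2L6 and HERC5 and removed by USP18. Of the 5 genes of this system, 4 were higher in each truncation line and USP18 did not pass in either. ISG15 (chromosome 1, 948847 to 949919) had 29.3 and 33.5 CPM in WT against 35.7 and 36.4 in SUN2KO, while Kashlid had 158 and 182 and LBD had 151 and 209. The LBD replicates were the most spread, and every truncation library was above every WT and SUN2KO library. The log2 fold changes were 2.43 ± 0.11 in Kashlid (adjusted p = 8.26e-13), 2.52 ± 0.11 in LBD (6.59e-13) and 0.20 ± 0.13 in SUN2KO (0.233). UBE2L6, the conjugating enzyme, had 0.713 and 0.909 CPM in WT and 0.974 and 1.56 in SUN2KO, compared with 2.72 and 2.87 in Kashlid and 2.89 and 2.39 in LBD. UBE2L6 was higher in Kashlid (1.77 ± 0.36, 0.000382) and LBD (1.69 ± 0.36, 0.000754), and the SUN2KO value of 0.64 ± 0.40 did not pass (0.226). USP18, the deconjugating enzyme that also restrains the receptor, lay between 7.58 and 11.4 CPM over the 8 libraries.

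HERC5, the main ISG15 ligase in human cells, and its neighbour HERC6 lie 14.0 kb apart on chromosome 4 and were higher in all 3 lines. HERC5 (chromosome 4, 89378268 to 89427319) had 25.2 and 25.7 CPM in WT against 33.3 and 34.7 in SUN2KO, while Kashlid had 90.1 and 92.7 and LBD had 90.6 and 100.2. Its replicates were close, and SUN2KO stood between WT and the truncation lines. The log2 fold changes were 0.42 ± 0.08 in SUN2KO (adjusted p = 0.000324), 1.84 ± 0.07 in Kashlid (8.91e-14) and 1.90 ± 0.07 in LBD (9.33e-14). HERC6 had mean levels of 16.6, 28.2, 41.3 and 40.8 CPM in WT, SUN2KO, Kashlid and LBD, with log2 fold changes of 0.76, 1.31 and 1.29. The 18 other tested genes in the 5 Mb window that holds the pair had median log2 fold changes of 0.49 (SUN2KO), 0.39 (Kashlid) and 0.38 (LBD). With that window median subtracted, HERC5 in SUN2KO was -0.076 (adjusted p = 0.536) and HERC6 in SUN2KO was 0.27 (0.0701), while both genes still passed in the truncation lines.

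**Figure D3:**
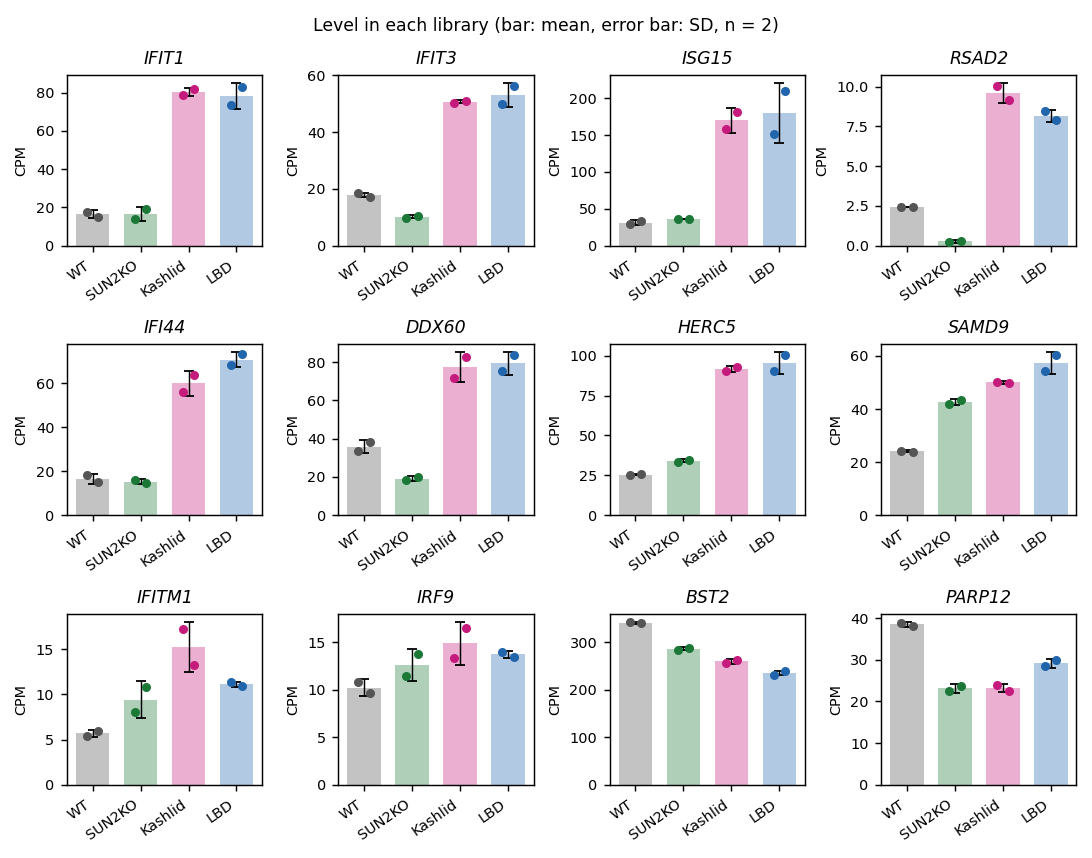
Levels in CPM of 12 members in the 4 groups, with a point for each library, a bar for the mean and an error bar for the SD (n = 2); each panel has its own scale from 0. IFIT1, ISG15, IFI44 and HERC5 stand high in both truncation lines, IFIT3, RSAD2 and DDX60 also stand below WT in SUN2KO, and BST2 and PARP12 stand below WT in all 3 lines.

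The membrane-bound restriction factors did not move together. IFITM1, which blocks fusion of virus with the cell membrane, had 5.41 and 5.96 CPM in WT and 8.01 and 10.9 in SUN2KO, compared with 17.2 and 13.3 in Kashlid and 11.3 and 10.9 in LBD. IFITM1 was higher in Kashlid (1.42 ± 0.17, adjusted p = 9.58e-07), LBD (0.96 ± 0.18, 0.000169) and SUN2KO (0.73 ± 0.18, 0.00283; 0.49 and 0.0858 without SUN2KO replicate 2). BST2 (tetherin, chromosome 19, 17513748 to 17516457), which holds budding virus at the cell surface, went the other way. It had 343 and 340.1 CPM in WT against 285 and 289 in SUN2KO, while Kashlid had 257 and 264 and LBD had 232 and 239. The 4 groups did not overlap, and BST2 was lower than WT, at -0.25 ± 0.05 (0.0002), -0.39 ± 0.05 (7.38e-07) and -0.53 ± 0.05 (1.21e-08) in the same order. The BST2 promoter printed above holds overlapping matches to the core.

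IFITM3, the endosomal relative of IFITM1, had 159 and 176 CPM in WT and 179.7 and 191 in SUN2KO, compared with 202 and 222 in Kashlid and 179.7 and 186 in LBD. It was higher in Kashlid (0.34 ± 0.06, adjusted p = 9.58e-05) and did not pass in SUN2KO (0.15, 0.0581) or LBD (0.13, 0.1). IFITM2 lay between 115 and 138 CPM in all 8 libraries and did not pass in any comparison with WT. The IFITM genes are near-identical over parts of their sequence and lie within a few kb on chromosome 11, so reads may be shared among them.

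The genes named IFI are grouped by their induction and not by their function. Of these 6, 5 were higher in Kashlid and 4 in LBD. IFI44L (chromosome 1, 79086088 to 79111830), a cytoplasmic protein with antiviral activity, had 2.79 and 2.67 CPM in WT against 1.73 and 3.28 in SUN2KO, while Kashlid had 16.1 and 20.3 and LBD had 15.1 and 15.9. Its paralog IFI44, 3.6 kb away, had 18.2 and 14.9 CPM in WT and 15.96 and 14.6 in SUN2KO, compared with 56.0 and 63.9 in Kashlid and 68.4 and 73.2 in LBD. For both genes SUN2KO overlapped WT and the truncation lines did not. IFI44L was higher by 2.73 ± 0.20 in Kashlid (adjusted p = 9.43e-10) and 2.50 ± 0.20 in LBD (4.99e-09), and IFI44 by 1.85 ± 0.10 (7.12e-12) and 2.09 ± 0.10 (1.3e-12).

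IFI27, a mitochondrial and nuclear-envelope protein, had 0.476 and 0.227 CPM in WT against 0.595 and 0.269 in SUN2KO, while Kashlid had 1.91 and 1.99 and LBD had 0.463 and 1.26. The Kashlid rise passed (2.46 ± 0.54, adjusted p = 0.000859). In LBD 1 library lay within the WT range, and the difference did not pass (1.27 ± 0.63, 0.108). IFI6, a membrane protein that protects the endoplasmic reticulum and mitochondria, had mean levels of 9.70, 10.5, 28.5 and 23.3 CPM in WT, SUN2KO, Kashlid and LBD. IFI16, a nuclear DNA-binding protein, had mean levels of 85.3, 108, 147 and 134 CPM and was higher in all 3 lines. IFI35 lay between 10.2 and 12.7 CPM over the 8 libraries and did not pass.

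SAMD9 and SAMD9L, growth-restraining antiviral proteins encoded 12031 bases apart on chromosome 7, were both higher in the truncation lines. SAMD9 (chromosome 7, 92728826 to 92747336) had 24.3 and 23.8 CPM in WT and 41.8 and 43.5 in SUN2KO, compared with 50.4 and 49.7 in Kashlid and 54.4 and 60.2 in LBD. Its largest step was between WT and SUN2KO: the log2 fold changes were 0.83 ± 0.08 (adjusted p = 1.22e-07), 1.06 ± 0.08 (1.69e-09) and 1.25 ± 0.08 (1.5e-10) in SUN2KO, Kashlid and LBD. SAMD9L had 0.832 and 0.511 CPM in WT against 0.433 and 0.215 in SUN2KO, while Kashlid had 1.68 and 2.76 and LBD had 2.72 and 2.87. Its SUN2KO libraries lay below WT without passing (-1.03 ± 0.59, 0.173), and it was higher in Kashlid (1.72 ± 0.42, 0.00195) and LBD (2.05 ± 0.40, 0.000346). The 22 other genes of their window had medians of -0.30, -0.31 and -0.34, opposite to SAMD9.

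The ADP-ribosyltransferases of the PARP family include members that were lower than WT. PARP12, a stress-granule and Golgi protein (chromosome 7, 139723549 to 139763521), had 38.9 and 38.1 CPM in WT and 22.4 and 23.8 in SUN2KO, compared with 23.9 and 22.6 in Kashlid and 28.4 and 29.9 in LBD. It was lower, at -0.74 ± 0.09 (adjusted p = 1.39e-06), -0.73 ± 0.09 (1.15e-06) and -0.40 ± 0.09 (0.000864) in SUN2KO, Kashlid and LBD. The 18 other genes of its window had medians of -0.54, -0.43 and -0.44, and with these subtracted PARP12 did not pass in SUN2KO (-0.20, 0.101) or LBD (0.043, 0.773). PARP10, a nuclear and cytoplasmic mono-ADP-ribosyltransferase, had 21.1 CPM in both WT libraries but 11.5 and 15.7 in SUN2KO, while Kashlid had 15.8 and 15.6 and LBD had 17.1 and 19.6. It was lower in SUN2KO (-0.63 ± 0.13, 0.000603) and Kashlid (-0.43 ± 0.13, 0.00981; 0.0502 without WT replicate 2). All its libraries in the lines lay below WT, and the LBD difference of -0.20 did not pass (0.211).

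PARP14, a cofactor of STAT6, had 41.4 and 45.8 CPM in WT against 51.2 and 57.7 in SUN2KO, while Kashlid had 59.7 and 56.3 and LBD had 61.1 and 58.4. It was higher in all 3 lines by 0.32 ± 0.08 (adjusted p = 0.00285), 0.41 ± 0.08 (0.000225) and 0.45 ± 0.08 (8.97e-05). The SUN2KO call was lost without WT replicate 1 (0.0646) or SUN2KO replicate 2 (0.0786). PARP9 and its partner ubiquitin ligase DTX3L overlap by 10 bases, where reads may be shared. PARP9 had means of 13.5, 16.8, 15.4 and 17.6 CPM and was higher in SUN2KO (0.32, 0.0381) and LBD (0.38, 0.0121), calls that DESeq2 did not make (0.152 and 0.056). DTX3L lay between 23.6 and 28.98 CPM and did not pass against WT.

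Among the TRIM ligases and the nuclear body genes the changes were below 2-fold. TRIM21, the cytosolic antibody receptor, had 11.1 and 11.3 CPM in WT and 14.5 and 16.2 in SUN2KO, compared with 12.8 and 13.7 in Kashlid and 16.7 and 18.8 in LBD. It was higher in LBD (0.66 ± 0.12, adjusted p = 0.000194) and SUN2KO (0.46 ± 0.12, 0.00616; 0.0763 without SUN2KO replicate 2), and Kashlid did not pass (0.24, 0.128). TRIM14, an adaptor of mitochondrial antiviral signalling, had 91.1 and 91.9 CPM in WT against 97.9 and 96.2 in SUN2KO, while Kashlid had 105 and 102 and LBD had 118 and 106. Its rise was 0.29 ± 0.06 in LBD (0.000731) and 0.18 ± 0.06 in Kashlid (0.0236), the latter lost in DESeq2 (0.066) and without WT replicate 1 (0.111), WT replicate 2 (0.0841) or Kashlid replicate 1 (0.078). TRIM22, which restricts viral transcription, lay between 0.469 and 1.25 CPM and did not pass.

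SP100, a structural protein of nuclear bodies, had 21.0 and 25.5 CPM in WT and 29.4 and 26.1 in SUN2KO, compared with 31.4 and 31.5 in Kashlid and 30.6 and 31.9 in LBD. Its paralog SP110 had 4.10 and 3.58 CPM in WT against 5.90 and 4.94 in SUN2KO, while Kashlid had 6.996 and 6.39 and LBD had 6.83 and 5.44. Every library of the lines lay above both WT libraries for both genes, and only the truncation lines passed. SP100 was higher by 0.43 ± 0.10 in Kashlid (adjusted p = 0.0015) and 0.43 ± 0.10 in LBD (0.00207), and SP110 by 0.80 ± 0.20 (0.00269) and 0.68 ± 0.20 (0.0114). Without WT replicate 1 SP100 missed the threshold in both lines (0.052 and 0.0666), and without WT replicate 2 or LBD replicate 1 SP110 missed it in LBD (0.098 and 0.129).

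DDX60, a helicase that promotes sensing of viral RNA (chromosome 4, 169137442 to 169239958), had 33.5 and 38.2 CPM in WT and 18.2 and 20.04 in SUN2KO, compared with 71.8 and 82.9 in Kashlid and 75.3 and 83.5 in LBD. Its paralog DDX60L, 71.3 kb away, had 52.1 and 57.1 CPM in WT against 34.9 and 36.9 in SUN2KO, while Kashlid had 41.7 and 43.9 and LBD had 44.0 and 46.6. Both were lower in SUN2KO, by -0.91 ± 0.10 (adjusted p = 4.31e-07) and -0.61 ± 0.08 (3.41e-06). In the truncation lines the pair split: DDX60 was higher than WT by 1.11 ± 0.09 in Kashlid (2.31e-09) and 1.15 ± 0.09 in LBD (1.78e-09). DDX60L was lower than WT, at -0.35 ± 0.08 in Kashlid (0.000825) and -0.27 ± 0.08 in LBD (0.00768; 0.127 without WT replicate 2 and 0.0838 without LBD replicate 1). Each has 2 matches to the core in its window. ISG20, an exonuclease that degrades viral RNA, had 3.51 and 5.96 CPM in WT and 4.71 and 4.57 in SUN2KO, while Kashlid had 15.3 and 14.4 and LBD had 11.9 and 16.7. The truncation lines were clear of both other groups, with rises of 1.64 ± 0.20 in Kashlid (1.03e-06) and 1.59 ± 0.20 in LBD (2.16e-06).

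Of the remaining effectors, PLSCR1, a scramblase-like protein that hinders viral entry, had 31.1 and 31.5 CPM in WT against 38.7 and 39.3 in SUN2KO, while Kashlid had 54.2 and 44.8 and LBD had 45.8 and 40.9. It was higher by 0.66 ± 0.09 in Kashlid (adjusted p = 5.99e-06), 0.47 ± 0.09 in LBD (0.000377) and 0.31 ± 0.09 in SUN2KO (0.0108; 0.0558 to 0.0668 without WT replicate 1, WT replicate 2 or SUN2KO replicate 2, and 0.325 with the window median subtracted, at 0.13). LGALS3BP, a secreted glycoprotein, had 451 and 476 CPM in WT and 501 and 499.8 in SUN2KO, compared with 393 and 408 in Kashlid and 457 and 446 in LBD. Kashlid was the low group and SUN2KO the high group: the Kashlid difference passed (-0.21 ± 0.04, 0.000641), and those of SUN2KO (0.11, 0.0575) and LBD (-0.04, 0.533) did not. XAF1 had 0 to 4 counts and EPSTI1 0 to 6 counts per library, and neither passed the filter on low counts.

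**Figure D4:**
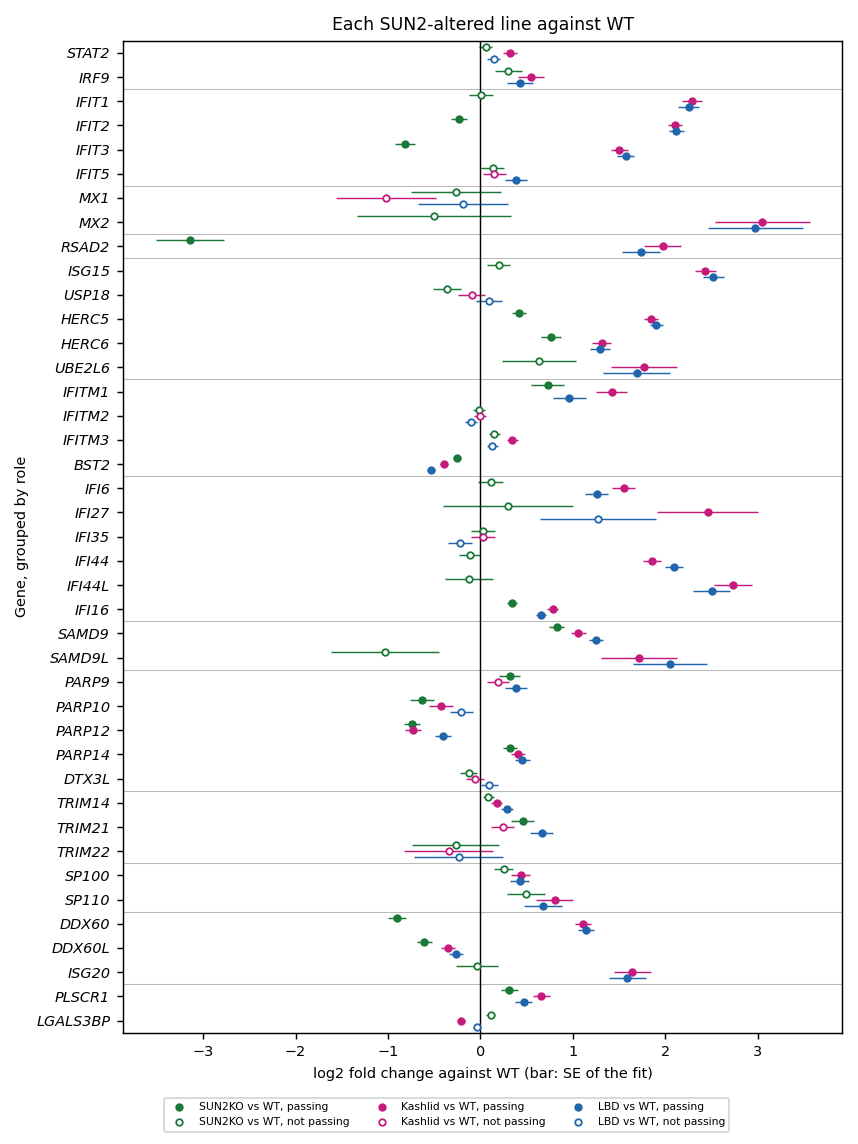
Log2 fold change of each tested member against WT in SUN2KO, Kashlid and LBD, with a bar for the SE of the fit; filled points passed the test at adjusted p under 0.05 and open points did not. The truncation points lie together and far right of 0 for IFIT1, ISG15, MX2 and IFI44L, while SUN2KO lies left of 0 for RSAD2, DDX60 and IFIT3.

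Members with and without a match to the core both rose in the truncation lines. Of the 26 tested members with a match, 17 were higher and 4 lower in Kashlid, 18 higher and 3 lower in LBD, and 7 higher and 6 lower in SUN2KO. Of the 9 tested members with a window and no match, 8 were higher in Kashlid, 7 in LBD and 2 in SUN2KO, and the others did not pass. Over all tested genes 21.7% were higher and 22.7% lower in Kashlid, 19.05% and 20.98% in LBD, and 17.5% and 19.1% in SUN2KO. Those 9 were STAT2, IRF9, HERC6, UBE2L6, IFI35, IFI16, SAMD9L, SP100 and SP110. Each count is a description, and the difference between members with and without a match was not tested.

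The genes that feed the pathway were read from lists beside the members. Of 21 interferon genes in the table only IFNE was tested, with 24 and 18 counts in WT against 6 and 9 in SUN2KO, while Kashlid had 10 and 8 and LBD had 11 and 18. IFNE was lower in SUN2KO (-1.58 ± 0.51, adjusted p = 0.0186). IFNB1, the interferon that most cells can make, had 0 and 2 counts in WT and 0 and 0 in SUN2KO, while Kashlid had 0 and 7 and LBD had 1 and 5. The ratio of the IFNB1 level to WT was 3.51 in Kashlid (0.668 to 34.6, an interval for counting error only) and 3.04 in LBD (0.543 to 30.8). IFNL1, a type III interferon, had 1 and 0 counts in WT against 0 and 0 in SUN2KO, while Kashlid had 4 and 1 and LBD had 12 and 2, a ratio of 14.2 for LBD to WT (2.16 to 599). In each truncation line the IFNB1 counts came largely from replicate 2 and the IFNL1 counts largely from replicate 1.

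The chains of the type I interferon receptor were lower than WT in all 3 lines. Of 9 receptor and kinase genes, 4 were lower (44.4%) and 1 was higher than WT in each truncation line, and 3 were lower (33.3%) in SUN2KO. Over all tested genes 22.7% were lower in Kashlid, 20.98% in LBD and 19.1% in SUN2KO. IFNAR1, a chain of the type I receptor, was at 89.8 and 87.1 CPM in WT and 70.0 and 59.8 in SUN2KO, compared with 51.6 and 58.0 in Kashlid and 60.6 and 57.1 in LBD. Its log2 fold changes were -0.45 ± 0.08 in SUN2KO (adjusted p = 9.46e-05), -0.69 ± 0.08 in Kashlid (3.89e-07) and -0.59 ± 0.08 in LBD (3.61e-06). The other chain, IFNAR2, was lower, at -0.34, -0.37 and -0.39 as was the kinase JAK1, at -0.18, -0.59 and -0.43, in that order. IFNGR2 of the type II receptor was lower in Kashlid (-0.37) and LBD (-0.47). IFNAR1, IFNAR2 and IFNGR2 lie between 34602200 and 34809828 on chromosome 21 (hg19) and are themselves among the 30 tested genes of their window. The median difference of that window from WT was -0.37 in Kashlid, -0.38 in LBD and -0.35 in SUN2KO. With that median subtracted, IFNAR1 was at -0.10 in SUN2KO (adjusted p = 0.369), -0.32 in Kashlid (0.00269) and -0.21 in LBD (0.0399). IFNAR2 was then at 0.012, 0.0043 and -0.010 and IFNGR2 at 0.0010 in Kashlid and -0.092 in LBD, and none of these passed. With its own window's median subtracted, JAK1 was at -0.31 in Kashlid (0.000104), -0.13 in LBD (0.0791) and 0.0036 in SUN2KO (0.988). The 1 gene higher in both truncation lines was TYK2 (0.34 and 0.26), a name picked after its values were seen.

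Of 7 tested transcription factors of the response, 2 were higher (28.6%) and 1 was lower (14.3%) in each truncation line, against 21.7% and 22.7% of all tested genes in Kashlid and 19.05% and 20.98% in LBD. IRF1 was higher by 0.56 ± 0.13 in Kashlid (adjusted p = 0.00109) and 0.64 ± 0.13 in LBD (0.000359), and IRF3 by 0.46 and 0.39. STAT3 was lower, at -0.24 and -0.23. Of 11 negative regulators, 5 were higher (45.5%) and 3 lower (27.3%) in Kashlid, and 6 higher (54.5%) and 2 lower (18.2%) in LBD. In SUN2KO 4 were higher (36.4%) and 2 lower (18.2%), against 17.5% and 19.1% of all tested genes. The lower shares in LBD and SUN2KO were near those of all tested genes. PTPN6, a phosphatase that dampens cytokine receptors, was higher in SUN2KO (0.67 ± 0.13), Kashlid (1.04 ± 0.12) and LBD (1.05 ± 0.12), and PIAS2 was lower, at -0.59, -0.44 and -0.61 in the same order. PIAS1 (0.48, 0.49 and 0.43) and PIAS3 (0.30, 0.52 and 0.53), inhibitors of STAT proteins, were higher in all 3 lines. SOCS3 was higher by 0.67 in Kashlid and 0.24 in LBD (0.0418), and CISH in LBD by 0.45 (0.0475). With the window median subtracted, SOCS3 was at 0.32 in Kashlid (0.00636) and -0.038 in LBD (0.811), CISH in LBD was at 0.38 (0.108), IRF3 in LBD was at 0.24 (0.0194) and PTPN6 in SUN2KO was at 0.42 (0.0167). UBA7, the enzyme that activates ISG15, had means of 0.173, 0.269, 0.642 and 0.676 CPM in WT, SUN2KO, Kashlid and LBD and passed narrowly in Kashlid (1.84 ± 0.74, 0.0451) and LBD (1.91 ± 0.74, 0.0393). It reached the filter's minimum only with the truncation lines' libraries. Both UBA7 calls were lost with DESeq2 (adjusted p = 0.159 and 0.145), without the filter (0.0789 and 0.0683), with the window median subtracted (0.0641 and 0.0556), without WT replicate 1 (0.23 and 0.218) and without WT replicate 2 (0.0949 and 0.092).

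Of 41 further interferon-stimulated genes, 31 were tested. In Kashlid and in LBD 15 were higher (48.4%) and 5 lower (16.1%) than WT, and in SUN2KO 6 were higher (19.4%) and 8 lower (25.8%). The shares of all tested genes were those given above for the truncation lines, and 17.5% higher and 19.1% lower in SUN2KO. TRANK1 had 6.54 and 7.56 CPM in WT against 10.5 and 11.4 in SUN2KO, while Kashlid had 25.3 and 26.7 and LBD had 24.8 and 24.1, and it was higher by 0.63, 1.88 and 1.79. GBP1, a guanylate-binding protein, was higher by 1.79 ± 0.44 in Kashlid (adjusted p = 0.0021) and 2.69 ± 0.40 in LBD (1.79e-05), and GBP2 was higher in all 3 lines by 1.69, 1.43 and 1.66. GBP1, APOL3 and GBP5 too reached the filter's minimum only with the truncation lines' libraries. They are among the 31 tested genes through those libraries, so the counts above describe the list and do not test it. PML, the core of nuclear bodies, was lower in all 3 lines (-0.81, -0.85 and -0.66), unlike SP100. CD274, the checkpoint ligand PD-L1, had 2.44 and 2.16 CPM in WT and 0.379 and 0.645 in SUN2KO, compared with 0.694 and 0.411 in Kashlid and 0.521 and 0.299 in LBD, and it was lower, at -2.15, -2.04 and -2.46. PLAC8 was higher in all 3 lines by 0.79, 0.47 and 0.64, and by 0.39, 0.24 and 0.36 with the window median subtracted. APOL3 had 2 counts over the WT libraries, 17 over Kashlid and 18 over LBD, a ratio to WT of 8.52 (2.02 to 76.0) and 9.11 (2.18 to 81.0). GBP5 had 3 counts in WT and 30 in LBD, a ratio of 10.1 (3.15 to 51.8). The pathway lists were chosen with results of these data known, so their counts are descriptions.

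Setting the truncation lines against SUN2KO asks how a shortened SUN2 differs from the knockout in these genes. In Kashlid 23 of 41 members were higher than in SUN2KO (56.1%) and 2 lower (4.88%), against 8.92% and 9.13% of all tested genes. In LBD 22 were higher (53.7%) and 2 lower (4.88%), against 6.69% and 6.79%. With library size alone as the scaling, 61.2% and 61.1% of the calls over all genes were higher, against 49.4% and 49.6% here. The 2 comparisons share the SUN2KO libraries. When a library was left out, 16 to 20 members were higher in each comparison, fewer than with all libraries. The higher calls lost in at least 1 such fit were STAT2, IFITM1, IFITM3, IFI27, UBE2L6, SAMD9, DDX60L and PLSCR1 in Kashlid. In LBD they were USP18, UBE2L6, PARP10, PARP12, TRIM14 and DDX60L. By 2-fold or more 15 members were higher in Kashlid and 14 in LBD, which 1.47% and 1.36% of all tested genes were. RSAD2 had the largest difference, 5.12 ± 0.30 in Kashlid (adjusted p = 6.59e-11) and 4.88 ± 0.30 in LBD (1.86e-10). MX2 (3.56 ± 0.54 and 3.48 ± 0.55) came next, ahead of SAMD9L (2.75 ± 0.47 and 3.08 ± 0.46) and IFI44L (2.86 ± 0.20 and 2.62 ± 0.20), whose order differed between the lines. MX2, SAMD9L and IFI27 reached the filter's minimum only with the truncation lines' libraries; MX2 and SAMD9L count here among the higher members of both lines, and IFI27 (2.16) in Kashlid. IFIT1, IFIT2, IFIT3, ISG15, IFI44 and DDX60 were each higher by 1.97 to 2.39. For IFIT3 and DDX60, which were lower than WT in SUN2KO, the distance from SUN2KO (2.32 and 2.01 in Kashlid) was larger than that from WT (1.51 and 1.11).

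SAMD9 and HERC6 were higher in both truncation lines than in SUN2KO by less than 2-fold. SAMD9 was higher than SUN2KO by 0.23 ± 0.08 in Kashlid (adjusted p = 0.0374, and 0.0696 to 0.244 without any 1 of the 4 libraries) and 0.43 ± 0.07 in LBD (0.000413). HERC6 was higher by 0.55 ± 0.10 (0.000402) and 0.53 ± 0.10 (0.000696). The members lower than in SUN2KO were BST2 and LGALS3BP in both lines. BST2 was lower, at -0.14 ± 0.05 in Kashlid (0.0377) and -0.28 ± 0.05 in LBD (0.000193). The Kashlid call was lost with library size only (0.105) and in the fit of the 2 groups alone (0.0751). It was also lost without Kashlid replicate 1 (-0.12), SUN2KO replicate 1 (-0.15) or SUN2KO replicate 2 (-0.13). LGALS3BP was lower, at -0.32 ± 0.04 in Kashlid (2.57e-05) and -0.15 ± 0.04 in LBD (0.0295). The LBD call was lost with library size only (0.0715) and without any 1 of the 4 libraries compared (-0.16 to -0.13). None of the 5 PARP and DTX3L genes, of the 3 TRIM genes or of the 2 SP100 family genes passed in Kashlid against SUN2KO. In LBD PARP10 (0.43, 0.0331), PARP12 (0.33, 0.0154) and TRIM14 (0.20, 0.0285) passed, and DESeq2 made none of these 3 calls (0.102, 0.0587 and 0.0565).

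Comparing LBD with Kashlid asks whether the place of the deletion goes with a difference in these genes. Only LGALS3BP passed, higher in LBD by 0.17 ± 0.04 (adjusted p = 0.0388), where 1.63% of all tested genes were higher and 1.28% lower. No member was called lower. An unadjusted p under 0.05 in either direction was found for 13 members, and its share over all genes was not computed. DESeq2 called 1 member, LGALS3BP, but gave an adjusted p to only 22 of the 41 members, so it made no call on the others. The median over the members was 0.01. The fit gives intervals that bound the difference: 27 of 41 members had a 95% interval within 0.5 log2 units of 0, and 37 within 1 unit. The same shares over all tested genes were not computed, so these counts do not set the members apart from other genes. The interval was -0.23 to 0.16 for IFIT1, -0.13 to 0.15 for IFIT2, -0.12 to 0.29 for ISG15, -0.07 to 0.20 for HERC5 and -0.13 to 0.21 for DDX60. MX1, IFI27, SAMD9L and TRIM22, all low in counts, had wider intervals. Differences that did not pass included those of IFI27 (-1.18 ± 0.46, 0.181), MX1 (0.84 ± 0.56, 0.479), IFITM1 (-0.46 ± 0.16, 0.125), TRIM21 (0.42, 0.061) and PARP12 (0.33, 0.0544). The LGALS3BP call was lost in the fit of the 2 groups alone (0.147), with the window median subtracted (0.0714) and without Kashlid replicate 1 (0.147), LBD replicate 1 (0.222) or LBD replicate 2 (0.111).

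**Figure D5:**
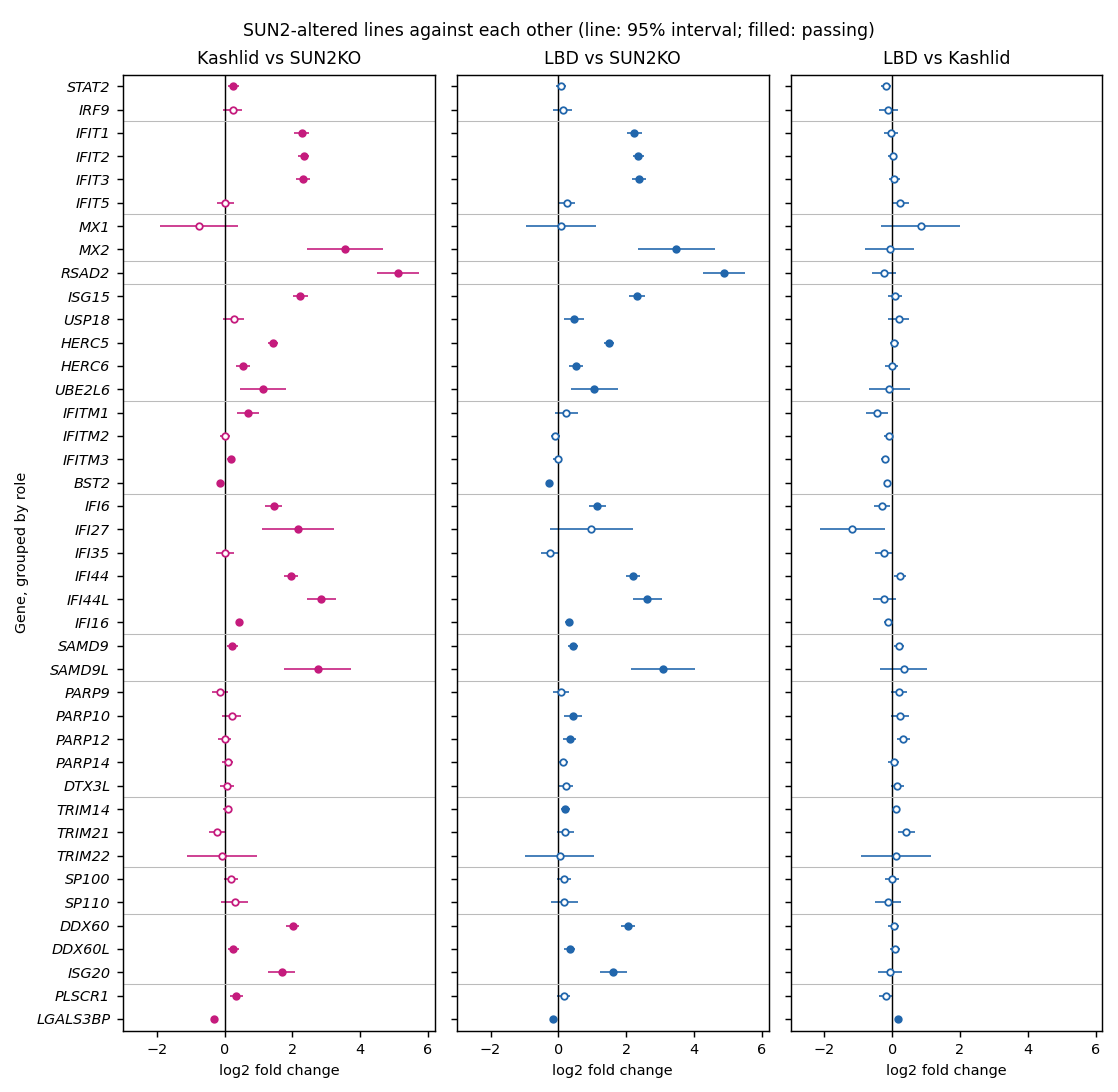
Log2 difference of each tested member between the lines (Kashlid against SUN2KO, LBD against SUN2KO and LBD against Kashlid), with a bar for the 95% interval. The differences from SUN2KO reach 5.12 for RSAD2, whereas those between LBD and Kashlid lie around 0, with intervals inside 1 log2 unit for 37 of 41 members.

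The other genes near a member had medians that differed from window to window. Windows of 5 Mb with at least 15 other tested genes were available for 38 members, and none for RSAD2, DDX60 and DDX60L. The window medians ranged from -0.54 to 0.49 in SUN2KO, -0.46 to 0.39 in Kashlid and -0.44 to 0.38 in LBD, all against WT. Around the IFIT genes they were near 0 (-0.03, -0.06 and 0.0031 over 23 genes), as they were around ISG15 (-0.11, -0.04 and -0.04). Around MX1 and MX2 (-0.44, -0.46 and -0.41) and ISG20 (-0.30, -0.29 and -0.30) they lay opposite to the rises of MX2 and ISG20. With the window median subtracted, LGALS3BP in SUN2KO turned from 0.11 to -0.12 (adjusted p = 0.0461), in a window whose 82 other genes had a median of 0.23. Copy number was not measured, and the part of such regional shifts in the results was not tested beyond these values.

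The authors' deposited tables of the 3 comparisons with WT gave log2 fold changes whose correlation with those computed here was 0.999 across genes, which are not independent replicates. The column was recognised by this correlation and both sets of values rest on the same libraries, so the correlation is not separate evidence. In the authors' deposited tables at adjusted p under 0.05, 26 members were higher and 5 lower in Kashlid, 23 higher and 2 lower in LBD, and 8 higher and 7 lower in SUN2KO. All of these were also called here except LGALS3BP in SUN2KO, which the authors' deposited table gives as higher (0.11, adjusted p = 0.0411).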

How the data were processed

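RNA came from 8 libraries of MDA-MB-231 cells, 2 per group and 10000000 cells per sample, prepared with NEBNext Ultra and read in pairs on a NovaSeq instrument, per the labels. The submitters' processing notes name Trim Galore, STAR 2.7.1a, bedtools 2.24.0 and HTSeq as the authors' tools and hg19 as the genome. Which annotation was used, and whether strand was, is not given in the sources used here. The main table holds the authors' raw count of reads for each gene, and 0 entries name no gene. DESeq2 results for the comparisons with WT were deposited in 3 further tables without headers, again per the submitters' processing notes. In these, the authors' log2 fold change column was recognised by its correlation with the values computed here. The authors' p-value column was recognised because its Benjamini-Hochberg adjustment gave the adjusted column beside it. A further 12 unnamed columns hold values per library and were not used.

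Differences were computed in R 4.3.3 with edgeR 4.0.16 and limma 3.58.1. Factors came from TMM, low genes were removed with filterByExpr, and the quasi-likelihood test used a group mean for each group in 1 fit of the 8 libraries, with 4 residual degrees of freedom. P-values are two-sided and Benjamini-Hochberg adjusted over the 14016 tested genes of a comparison, with a threshold of 0.05. All adjusted p-values come from this test unless another is named. Fold changes carry the SE of the fit, and the 95% intervals are approximate. Ratios of 1 to 3 counts have exact intervals for counting error only. The edgeR test alone was tried on simulated counts modelled on the WT and SUN2KO libraries, and the other steps were not.

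Results were computed again with median-ratio factors, with library size alone, without the filter, and with a filter at 5 CPM in 2 libraries. They were also computed with DESeq2 1.42.0, with only the 2 groups compared, with the replicate number as a block, and without each library. A further alternative subtracted the median of the genes in 5 Mb windows that are not members (at least 15 genes). For the pathway genes these alternatives were added after seeing the data. A pathway gene and its pathway neighbours are part of the window median subtracted from it. Promoters were searched with python 3.11.15.

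The members, role groups and pathway lists were chosen with earlier results of these data known. In each role group, values per library are given for up to 3 members with the largest changes among those passing in any comparison, and for members called in opposite directions. From each pathway list up to 4 passing genes per comparison are named in order of size. Of the pathway genes, 1 is not reported here.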

Additional observations from a re-analysis of the deposited data

How the results depend on the processing

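The members' counts of calls moved by more than 1.5 times as follows. In SUN2KO against WT, 9 members were higher, and 4 to 9 when a library was left out. In Kashlid against SUN2KO, 2 were lower, 1 with library size only, 1 in the fit of the 2 groups alone, and 1 to 2 when a library was left out. In LBD against SUN2KO, 2 were lower, 1 with library size only and 1 whenever a library was left out. In LBD against Kashlid, 1 member was higher, 2 with median-ratio factors, 3 without the filter, 0 in the fit of the 2 groups alone, 0 with the window median subtracted, and 0 to 2 when a library was left out. There, 0 were lower, 2 without the filter, 1 with the window median subtracted, and 0 to 2 when a library was left out. Against WT, leaving out a library gave 24 to 27 higher members in Kashlid and 24 to 26 in LBD. Against SUN2KO it gave 16 to 20 in each truncation line, where all libraries gave 23 in Kashlid and 22 in LBD.

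Among member values that passed the test with or without an alternative, the sign turned only with the window median subtracted: HERC5 in SUN2KO to -0.076, LGALS3BP in SUN2KO to -0.12 and PARP12 in LBD to 0.043. Replicate numbers are shared between groups, and same-numbered libraries deviated together weakly over all tested genes (correlations of -0.015 to 0.103). Such a correlation cannot show whether same-numbered libraries share a batch that touches only some genes. With the replicate block, 3 members were higher and 1 lower in LBD against Kashlid, SUN2KO against WT had 21 member calls in place of 17, and no member call was lost.

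Over all genes, calls fell from 2529 to 1186 in Kashlid against SUN2KO without SUN2KO replicate 1, from 1890 to 884 in LBD against SUN2KO without LBD replicate 2 and to 1246 with DESeq2, and ranged from 129 to 839 around 408 in LBD against Kashlid. Members with few counts, such as MX2, IFI27, SAMD9L and UBE2L6, were not tested under the stricter filter, which kept 35 members. CMPK2, XAF1, EPSTI1 and all interferon genes but IFNE had too few counts to be tested, and the reason was not examined. Among the pathway genes, whose alternatives were chosen after seeing the data, called values turned sign only with the window median subtracted: IFNAR2 in SUN2KO to 0.012 and in Kashlid to 0.0043, IFNGR2 in Kashlid to 0.0010, JAK1 in SUN2KO to 0.0036 and SOCS3 in LBD to -0.038. The calls of IFNAR2, IFNGR2 and UBA7 in both truncation lines, SOCS3, PIAS1, CISH and JAK1 in LBD, and IFNE, IFNAR1, IFNAR2, IRF3, JAK1 and PIAS3 in SUN2KO were lost in at least 1 alternative.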
